A study of Mus musculus with 3 samples.

Results

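The genes described here encode surface receptors through which B cells meet complement, antibody and lipid antigen, and an intracellular relative of the Fc receptors. They are Cr2, Cd55, Fcer2a, Fcgr2b, Cd1d1, Fcrl1, Fcrl5 and Fcrla, 8 of the 32285 mouse genes in the deposited tables. They were chosen by symbol, and all 8 were found. Their transcripts were followed through the stages of splenic B cells in WT mice and in 2 models of BCL2 deregulation.

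Single-cell RNA was sequenced from spleen 10 days after a single intraperitoneal injection of sheep red blood cells (SRBCs), with 1 library for each of 3 genotypes. WT mice carried no BCL2 cassette. 3′RR-*BCL2* mice carried a randomly inserted transgene in which a human BCL2 cassette was placed under core elements of the IgH 3′ regulatory region, and in Igκ-*BCL2* mice the same cassette was knocked in at the Igκ locus in place of the Jκ segments. The genotypes were compared to learn how B cells develop and respond when BCL2 is driven by either element, on a mixed B6/129 background. The methods describe magnetic selection of B cells, while the labels list sorted B cells in the case of WT but whole tissue cells in that of the BCL2 mice. Neither source used here gives the age of these mice or the number pooled into a library.

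The WT library held 11269 barcodes with 62777659 UMIs (unique molecular identifiers, each standing for 1 captured transcript). The 3′RR-*BCL2* library held 7579 barcodes with 45539172 UMIs, and the Igκ-*BCL2* library 7034 barcodes with 37433924 UMIs. After filtering, 9932, 6561 and 6243 B-lineage cells remained, with median depths of 5031, 5291 and 4838 UMIs. Between 15 and 24 barcodes were shared by each pair of libraries. The BCL2 libraries stood apart from WT in the heat-shock gene Hspa1b, where WT had 18.0 CPM (UMIs of a gene per 1000000 UMIs of all genes), 3′RR-*BCL2* had 679 and Igκ-*BCL2* had 2121. The 3′RR-*BCL2* library also differed from both others in Xist and the Y-linked gene Ddx3y, at 1694 and 0.02 CPM, where WT had 0.15 and 199 and Igκ-*BCL2* 0.17 and 188. Sex, library and genotype can therefore not be told apart for 3′RR-*BCL2*. With 1 library per genotype there was no test of any difference between genotypes. Exact 95% intervals are given, which reflect the counting of UMIs alone, so they say nothing about the spread between mice.

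Complement receptor 2 (CD21, with its longer form CD35, both from Cr2) binds cleavage products of C3 on antigen. Marginal zone B cells, which sit at the border of the splenic white pulp and take up blood-borne antigen, are known by high CD21 and CD1d and low CD23, while follicular B cells carry less CD21 and more CD23. CD55 (from Cd55) is not a receptor for complement fragments but a membrane protein that speeds the decay of C3 convertases, and CD23 (from Fcer2a) is the low-affinity receptor for IgE. Fcgr2b encodes the inhibitory IgG receptor of B cells and Cd1d1 the molecule that shows lipids to NKT cells. Fcrl1 and Fcrl5 encode Fc receptor-like surface proteins, and Fcrla encodes an Fc receptor-like protein kept inside the cell.

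On GRCm38, the build that the submitters call mm10, Cr2 lay at chr1:195136811-195176716 on the minus strand, in up to 25 annotated exons. Cd55 lay at chr1:130439027-130462744, minus strand, where its 5′ end overlapped the antisense gene Gm16083. Fcrla at chr1:170917576-170927583 and Fcgr2b at chr1:170958617-170976547 were neighbours on the minus strand, 31.0 kb apart. Fcrl1 at chr3:87376387-87402934 and Fcrl5 at chr3:87435773-87500678 were likewise neighbours on the plus strand, 32.8 kb apart, and Cd1d1 lay at chr3:86995834-86999441 on the minus strand. Fcer2a lay at chr8:3681737-3694175, minus strand. An antisense gene, Gm38204, overlapped Fcgr2b, and a processed pseudogene, Gm2962, lay within Fcrla on its own strand.

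Promoters are shown for the genes whose levels separated marginal zone-like from resting-like cells in all 3 libraries, each as 300 bases from 250 before to 50 after the annotated start, from RefSeq on GRCm38.p6. Of the 8 genes, 7 had a promoter entry. Capitals mark TGGGAA on either strand (TTCCCA on the printed strand when it is on the other), the core letters bound by RBPJ, the DNA-binding partner of Notch. Notch2 signalling is known to be needed for marginal zone B cells. The Cr2 window is chr1:195176670-195176969, the Fcer2a window, which belongs to 1 of 3 annotated starts, is chr8:3690812-3691111, the Cd55 window is chr1:130462695-130462994 and the Fcrl5 window is chr3:87435532-87435831.
Cr2: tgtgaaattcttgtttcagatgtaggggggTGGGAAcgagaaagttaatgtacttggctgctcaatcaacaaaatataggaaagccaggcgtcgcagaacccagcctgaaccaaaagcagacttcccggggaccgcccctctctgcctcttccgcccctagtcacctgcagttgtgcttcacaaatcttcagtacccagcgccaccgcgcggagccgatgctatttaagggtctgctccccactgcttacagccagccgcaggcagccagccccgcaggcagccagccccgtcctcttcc
Fcer2a: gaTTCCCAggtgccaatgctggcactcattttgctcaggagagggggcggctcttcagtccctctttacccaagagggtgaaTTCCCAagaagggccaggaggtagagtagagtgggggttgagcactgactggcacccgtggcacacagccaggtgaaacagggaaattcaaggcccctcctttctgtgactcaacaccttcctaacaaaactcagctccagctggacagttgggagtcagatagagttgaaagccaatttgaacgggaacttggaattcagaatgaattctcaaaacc
Cd55: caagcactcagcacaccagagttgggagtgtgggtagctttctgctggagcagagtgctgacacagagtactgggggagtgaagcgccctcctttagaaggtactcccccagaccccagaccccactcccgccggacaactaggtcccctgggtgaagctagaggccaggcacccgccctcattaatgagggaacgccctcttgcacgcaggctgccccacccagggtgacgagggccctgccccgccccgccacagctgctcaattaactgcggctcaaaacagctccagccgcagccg
Fcrl5: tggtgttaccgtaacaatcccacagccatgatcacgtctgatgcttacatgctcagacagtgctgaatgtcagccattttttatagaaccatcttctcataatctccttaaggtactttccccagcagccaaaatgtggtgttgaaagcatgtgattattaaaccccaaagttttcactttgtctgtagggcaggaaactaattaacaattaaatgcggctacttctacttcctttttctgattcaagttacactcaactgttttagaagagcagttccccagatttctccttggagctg
The Cr2 window held 1 match, 220 bases before the start, and the Fcer2a window 2 matches, at 248 and 168 bases before its start, while the Cd55 and Fcrl5 windows held none. The Fcer2a window shown is the one with the most matches: that at the gene's 5′ end (chr8:3694125-3694424) held 0 and the remaining one (chr8:3690341-3690640) held 1. Of all 32544 mouse promoter windows of the same length, 25.4% held these letters, so a match is a description and not a binding site.

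Cells were placed in classes by clustering without the 8 genes or other genes of their pathways, and a class was named from marker lists that hold none of them. Resting-like cells, the reference class, numbered 6336 (WT), 3910 (3′RR-*BCL2*) and 4034 (Igκ-*BCL2*). Marginal zone-like cells numbered 487, 322 and 240 in the same order, germinal center-like cells 137, 641 and 304, activated-like cells 680, 307 and 280, transitional-like cells 714, 337 and 310, and IFN-activated-like cells 568, 334 and 346. The germinal center-like class joins its dividing cells. An Apoe-led cluster and a Gm42418-led cluster kept no name. Levels are CPM from UMIs summed over the cells of a class in 1 library, and they can be compared between classes and libraries for 1 gene but not between genes, because the 3′ tags are not scaled by length. In sums over cells, fewer expressing cells and less RNA per cell cannot be told apart. A gene is counted as past 2-fold when it differed that much in the same direction in all 3 libraries.

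Marginal zone-like cells differed from resting-like cells in several of these genes. Cr2 and Fcrl5 were higher and Cd55 and Fcer2a lower, past 2-fold in all 3 libraries, so 4 of the 8 genes passed. Of 8936 genes that could be measured, 1.68% passed by the same rule in either direction. The median log2 ratio of the 8 genes was 0.07, against −0.05 for all genes measured.

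Cr2 stood at 1004 CPM in WT marginal zone-like cells (974 to 1034), 712 in 3′RR-*BCL2* (682 to 743) and 389 in Igκ-*BCL2* (363 to 418). In resting-like cells of the same libraries it was 327, 249 and 159. The log2 ratios were 1.62 (1.57 to 1.67), 1.52 (1.44 to 1.59) and 1.29 (1.18 to 1.41), and the interval of Igκ-*BCL2* lay below those of both other libraries. Marginal zone-like cells of the 3 libraries supplied 20.6%, 20.3% and 13% of the Cr2 UMIs, against 7.4%, 7.0% and 5.6% of all UMIs.

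Fcrl5 was the most confined of the 8 genes. It stood at 91.5, 94.8 and 53.1 CPM in marginal zone-like cells, in the order WT, 3′RR-*BCL2*, Igκ-*BCL2* used from here on, and at 8.80, 8.13 and 4.76 in resting-like cells. The log2 ratios were 3.38, 3.54 and 3.48, with intervals that overlapped between the libraries. Marginal zone-like cells held 35.6%, 42.5% and 28.0% of all Fcrl5 UMIs.

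Cd55 went the other way. It was at 281, 245 and 430 CPM in marginal zone-like cells against 827, 842 and 869 in resting-like cells, with log2 ratios of −1.56, −1.78 and −1.01. The Igκ-*BCL2* ratio had an interval of −1.12 to −0.92 and so lay at the 2-fold line. Fcer2a was at 213, 186 and 189 against 587, 569 and 452, with log2 ratios of −1.46, −1.61 and −1.26.

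Cd1d1 was higher in marginal zone-like cells of each library but did not pass 2-fold in Igκ-*BCL2*. It stood at 88.8, 92.1 and 30.03 CPM against 27.6, 21.3 and 17.0 in resting-like cells, and its log2 ratios were 1.69, 2.11 and 0.83, the last with an interval of 0.40 to 1.22. Fcgr2b, Fcrl1 and Fcrla stayed within 0.24 of 0 on the log2 scale in every library.

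Some leading genes of the marginal zone-like cluster belong to other cells. Its 10 leading genes held 2 marginal zone markers, I830077J02Rik and Cd9, beside Lyz2 of myeloid cells, Jchain of plasma cells and Fcrl5 itself. They were ranked before the plasma-marker barcodes were taken out of the cluster. In the class itself Jchain stood at 2.95, 14.4 and 12.5 CPM, against 2.47, 23.4 and 24.8 in resting-like cells. Markers of macrophages summed to 550, 137 and 28.5 CPM in marginal zone-like cells, with 6, 5 and 4 of 9 detected and C1qa, C1qb and C1qc at 0, and Lyz2 alone gave 531, 123 and 19.5. These UMIs lay in few cells: without cells that held a Lyz2 UMI, 481, 319 and 238 cells remained, and Cr2 was at 1019, 722 and 396. Without them Cr2, Fcrl5 and Fcer2a still passed, and Cd55 did not, at a log2 ratio of −0.99 in Igκ-*BCL2*. With a finer clustering (resolution 0.4 in place of 0.2), Cr2 reached log2 ratios of 1.99, 1.97 and 2.16, Cd55 still passed, and Fcer2a at −1.13, −1.43 and −0.62 did not.

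**Figure D1:**
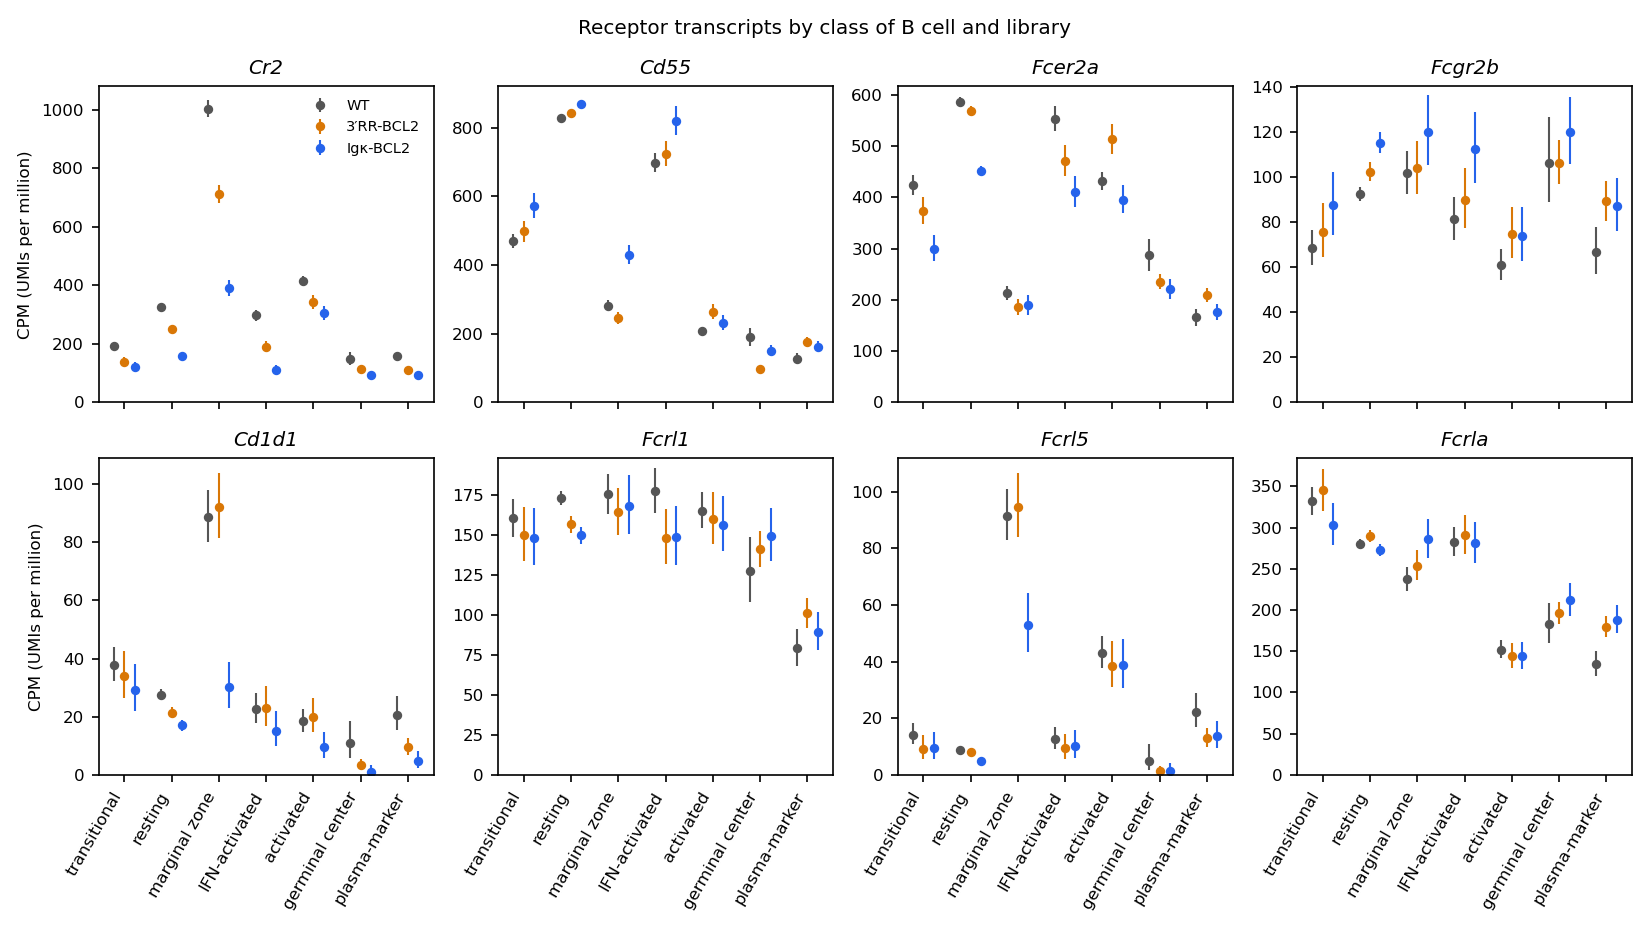
CPM (y axes, from 0, a scale for each gene) of the 8 genes in 7 classes of B cell (x axis), with a point for each library and bars for the exact 95% Poisson interval. Cr2, Cd1d1 and Fcrl5 peak in marginal zone-like cells, where Cr2 runs from 1004 in WT to 389 in Igκ-BCL2, while Fcer2a is at its lowest or next to it there and Cd55 lies between its resting-like and germinal center-like levels.

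The opposite courses of Cr2 and Fcer2a could be followed in single cells. Each cell was thinned to 2000 UMIs, since detection depends on depth, and a cell was called positive with 2 UMIs and negative with 0. Cells with Cr2 and without Fcer2a made up 40.4% of WT marginal zone-like cells (196 of 485, exact binomial interval 36.0 to 44.9%), 31.6% in 3′RR-*BCL2* (26.5 to 37.0%) and 12.2% in Igκ-*BCL2* (8.31 to 17.0%). In resting-like cells the same pattern was found in 5.48%, 3.81% and 2.75%. The reverse, Fcer2a without Cr2, was found in 2.06%, 2.50% and 5.04% of marginal zone-like cells and in 19.5%, 20.5% and 17.0% of resting-like cells. In WT, 196 marginal zone-like cells thus had Cr2 alone and 10 had Fcer2a alone, while 342 resting-like cells had Cr2 alone and 1218 had Fcer2a alone.

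Because resting-like cells are many, they still held 47.6% of all Cr2-positive, Fcer2a-negative cells in WT (plasma-marker barcodes are not part of this count), and 45.9% and 63.4% in the BCL2 libraries. Marginal zone-like cells held 27.3%, 31.6% and 16.9%. The levels that follow are over all 8 classes without the plasma-marker barcodes, marginal zone-like cells included. There Cr2-positive, Fcer2a-negative cells carried more Fcrl5 than Fcer2a-positive, Cr2-negative cells, at 38.3, 37.5 and 17.4 CPM against 5.5, 3.7 and 5.0. They carried less Cd55, at 478, 369 and 677 against 907, 892 and 919. Cd1d1 was at 55.0, 53.1 and 14.5 against 30.1, 24.2 and 18.8, and so was higher in WT and 3′RR-*BCL2* but not in Igκ-*BCL2*.

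**Figure D2:**
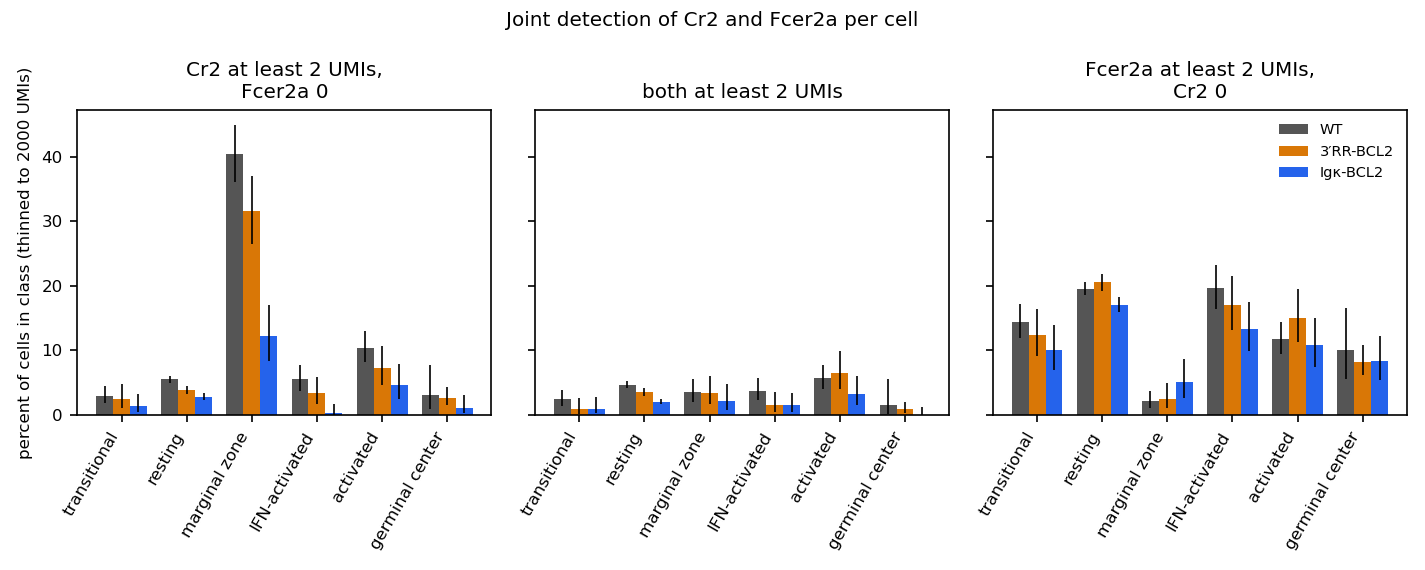
Percent of cells in 6 classes (x axes), after thinning each cell to 2000 UMIs, that held at least 2 Cr2 UMIs and no Fcer2a UMI, at least 2 of both, or at least 2 Fcer2a UMIs and no Cr2 UMI; bars stand for libraries and lines for exact 95% binomial intervals. Cr2 without Fcer2a reaches 40.4% (WT), 31.6% (3′RR-BCL2) and 12.2% (Igκ-BCL2) in marginal zone-like cells, and stays at or below 10.4% in every other class.

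Cells of the germinal center, where B cells divide and mutate their antibody genes, carried less of several of these receptors. Cd55, Fcer2a and Cd1d1 were lower than in resting-like cells past 2-fold in all 3 libraries, 3 of the 7 genes with enough UMIs, and none was higher. Of 8093 genes measured, 3.15% were lower and 4.35% higher by that rule. The median log2 ratio of the 7 genes was −1.03, against 0.05 for all genes measured.

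Cd55 stood at 189, 97.6 and 150 CPM in WT, 3′RR-*BCL2* and Igκ-*BCL2*, with log2 ratios of −2.12, −3.11 and −2.53 to resting-like cells. Fcer2a was at 287, 235 and 221, with log2 ratios of −1.03, −1.28 and −1.03, just past the 2-fold line in WT and Igκ-*BCL2*. Cd1d1 was at 10.8, 3.25 and 0.92 CPM, which rests on 13, 14 and 2 UMIs. Its log2 ratio in Igκ-*BCL2*, −3.88, had an interval of −7.25 to −2.34.

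Cr2 was also lower in germinal center-like cells of each library, at 149, 112 and 94.2 CPM, but its log2 ratio of −0.75 in Igκ-*BCL2* did not pass, beside −1.13 in WT and −1.15 in 3′RR-*BCL2*. Fcrla was at log2 ratios of −0.61, −0.57 and −0.36. Fcgr2b, the inhibitory receptor, was at 106, 106 and 120 and Fcrl1 at 127, 141 and 150, both within 0.44 of resting-like cells on the log2 scale. Fcrl5 had only 6, 6 and 3 UMIs in this class.

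The WT germinal center-like class was small, and its parts were unlike. The Syne1-led part, 125258 UMIs in WT, held Cd55 at 447 and Fcer2a at 663 CPM, against 121 and 227 in the Basp1-led part. In 3′RR-*BCL2* the same parts held Cd55 at 177 and 92.2. Fcer2a in the WT Syne1-led part (528 to 821) was not below the WT resting-like level of 587. The dividing part held Cd55 at 221, 76.8 and 33.3 and Fcer2a at 269, 116 and 38.9, from 6 and 7 UMIs in Igκ-*BCL2*. When classes were taken from markers alone, only Cd1d1 of the 8 genes passed.

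Activated-like cells, led by genes of ribosome production and growth such as Srm and Ccnd2, had Fcrl5 higher and Cd55 lower past 2-fold in all 3 libraries, 2 of 8 genes. Of 8802 genes measured, 3.62% were higher and 1.77% lower. Fcrl5 stood at 43.1, 38.4 and 38.7 CPM, with log2 ratios of 2.29, 2.24 and 3.03. Cd55 stood at 207, 264 and 232, with log2 ratios of −2.0, −1.68 and −1.90. Fcrl5 was thus raised and Cd55 lowered in both marginal zone-like and activated-like cells, while Fcer2a in activated-like cells, at 432, 513 and 395, had log2 ratios of only −0.44, −0.15 and −0.19.

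Cr2 in activated-like cells was at 415, 343 and 304 CPM, above resting-like cells in each library with log2 ratios of 0.34, 0.46 and 0.94. Fcrla was at 152, 144 and 144, with log2 ratios of −0.88, −1.01 and −0.92, and passed 2-fold in 3′RR-*BCL2* only. Fcgr2b was at 61.0, 74.8 and 74.1, its lowest level among the 9 classes in each library, though with an interval that overlapped that of the next class each time.

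Transitional-like cells, which have newly left the marrow, and IFN-activated-like cells had none of the 8 genes past 2-fold. Of 8650 genes measured in transitional-like cells, 0.902% were higher and 0.474% lower, and of 8578 in IFN-activated-like cells 1.15% were higher and 0% lower. Transitional-like cells had Cr2 at 194, 139 and 119 CPM and Cd55 at 469, 498 and 573, with log2 ratios of −0.75, −0.84 and −0.41 for Cr2 and −0.82, −0.76 and −0.60 for Cd55. Cd1d1 was above resting-like cells in each library, at log2 ratios of 0.46, 0.67 and 0.79. Both Cr2 and Cd55 were thus lower in transitional-like than in resting-like cells of each library. In IFN-activated-like cells the 8 genes lay between −0.51 and 1.12 on the log2 scale.

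**Figure D3:**
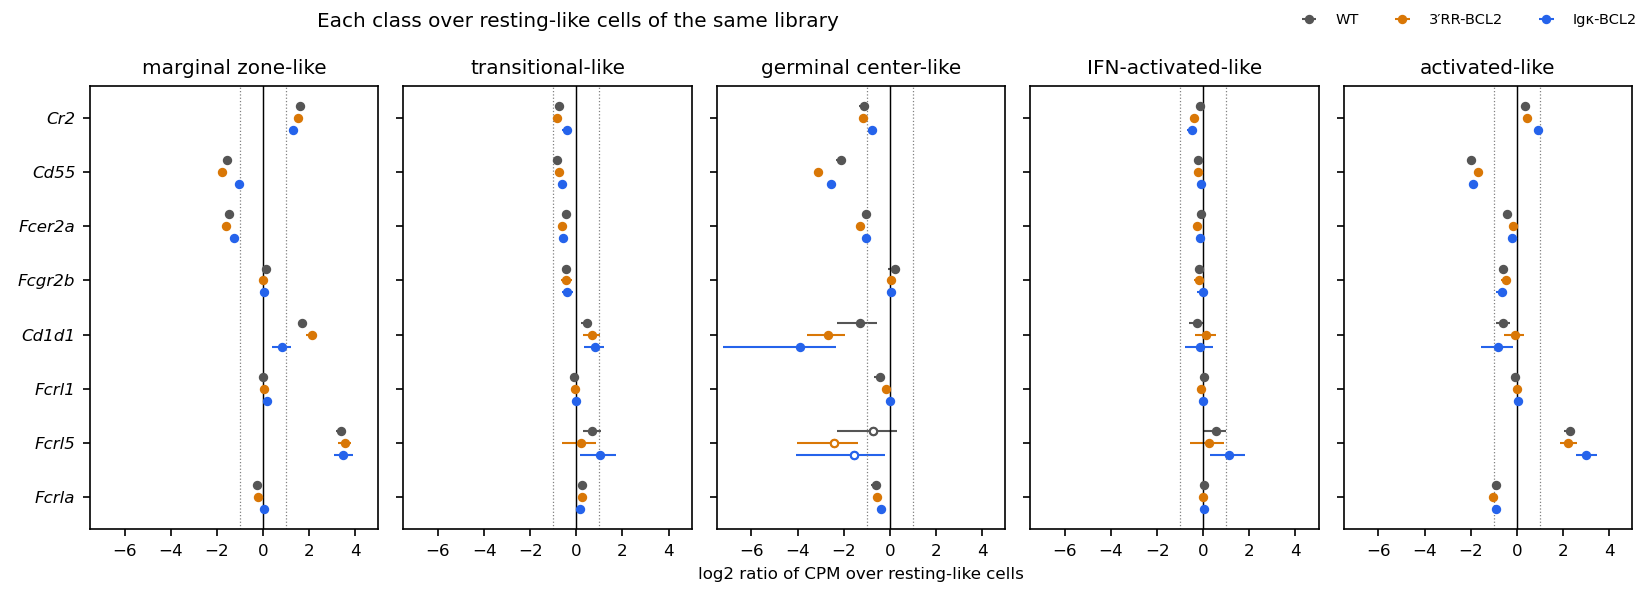
Log2 ratio of CPM over resting-like cells of the same library (x axes; dotted lines at 2-fold) for the 8 genes in 5 classes, with points for libraries and lines for exact 95% intervals. Open points are a gene with too few UMIs. Cr2, Cd1d1 and Fcrl5 lie right of 0 and Cd55 and Fcer2a left of it in marginal zone-like cells, and Cd55 reaches −3.11 in germinal center-like cells.

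Barcodes with at least 6 of 13 plasma cell markers numbered 104, 247 and 150, with Cd55 and Fcer2a lower past 2-fold and the others not. Of 9215 genes measured, 6.14% were higher and 3.18% lower. Few had the content of antibody-secreting cells. Immunoglobulin transcripts made up 3.48%, 3.53% and 9.39% of UMIs, and 61, 156 and 85 barcodes held exactly the minimum of markers. The markers were counted at full depth, and median depths were 19730.5, 15090 and 11765.5 UMIs, against 4790, 4940.5 and 4609 in resting-like cells. The 13 germinal center markers, all detected, summed to 996, 1425 and 886 CPM, against 89.6, 169 and 144 in resting-like cells. The part of depth or of this content in the Cd55 and Fcer2a ratios was not tested. Only 6, 6 and 13 barcodes held over 20% immunoglobulin, a selection made after the values were seen. In these Cr2 stood at 7.35, 17.5 and 22.2 CPM, from 1, 3 and 8 UMIs, and Fcrl5 had no UMI, which allows up to 27.1, 21.5 and 10.2 CPM, all above its resting-like level. Fcrla was at 103, 87.5 and 153, below its resting-like levels of 280, 290 and 272. Fcgr2b was at 51.5, 29.2 and 16.7, from 7, 5 and 6 UMIs, against 92.4, 102 and 115 in resting-like cells. Cd1d1 was at 36.8, 5.83 and 5.55, from 5, 1 and 2 UMIs, against 27.6, 21.3 and 17.0.

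Across all 9 classes, the 8 genes differed widely in how much they varied. The highest class exceeded the lowest by 18.4-fold for Fcrl5 in WT, 68.1-fold in 3′RR-*BCL2* and 38.3-fold in Igκ-*BCL2*. The same span was 8.22, 28.4 and 32.5-fold for Cd1d1, with lowest classes of few UMIs for both genes. It was 7.32, 8.63 and 5.79-fold for Cd55 and 6.75, 8.86 and 6.48-fold for Cr2. Fcer2a varied 3.84, 3.06 and 2.62-fold, and Fcrla, Fcrl1 and Fcgr2b between 1.72 and 2.53-fold in every library. In the order of the WT levels every neighbouring pair of classes overlapped in its intervals for Fcgr2b, and every pair but the lowest for Fcrl1.

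In the order of Cr2 levels, marginal zone-like cells came highest, activated-like cells next, then the Gm42418-led cluster and resting-like cells in each library. Activated-like cells and the Gm42418-led cluster overlapped in their intervals in 3′RR-*BCL2*, and germinal center-like and plasma-marker cells did so in each library. For Cd55, the highest class was the Apoe-led cluster in WT, at 935 CPM, but resting-like cells in both BCL2 libraries. For Cd1d1 and Fcrl5, marginal zone-like cells were highest in each library, but in Igκ-*BCL2* the interval overlapped with that of the next class, transitional-like cells for Cd1d1 and activated-like cells for Fcrl5.

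Shares of cells with a UMI showed how the levels were spread. After thinning to 2000 UMIs, Cr2 was detected in 76.1% of WT marginal zone-like cells (72.0 to 79.8%) and in 65.0% and 41.2% of those in 3′RR-*BCL2* and Igκ-*BCL2*. Without thinning the shares were 92.6%, 85.7% and 69.2%. In resting-like cells the thinned shares were 39.3%, 31.7% and 21.1%, so most resting-like cells showed no Cr2 UMI at that depth. Thinning left out 2 marginal zone-like cells in each library and 94, 51 and 72 resting-like cells.

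T cell barcodes, which should lack most of these receptors, served as a background for free RNA. They were picked for more UMIs of T cell than of B cell genes, so barcodes rich in free B cell RNA may be missing. Over the 3 libraries, 23 barcodes had T cell transcripts, with a median of 4753 UMIs, and 22 could be thinned. Cr2, Fcgr2b and Fcrl5 were detected in 0 of 22, which allows a share of up to 15.4%, and Fcer2a, Cd1d1, Fcrl1 and Fcrla in 1 of 22 (4.55%). Cd55, which T cells also express, was detected in 2 of 22 (9.09%). The Fcrl5 share in marginal zone-like cells was 15.5%, 18.8% and 10.1% after thinning. As point values, these were above the limit of 15.4% in WT and 3′RR-*BCL2* only, and barely so in WT. That limit rests on 22 barcodes, so the comparison does not set the libraries apart. The Cd1d1 share in resting-like cells, 5.35%, 3.89% and 3.71%, was close to that of T cells. It could not be told from free RNA by this comparison. The 23 T cell barcodes held 4 Cd1d1 UMIs (30.6 CPM) and 15 of Cd55. They held 1 UMI each of Fcer2a, Fcrl1 and Fcrla and 0 of Cr2, Fcgr2b and Fcrl5. What supplied their Cd1d1 UMIs was not tested. For Fcrl5, classes of the same libraries differed: 1.38%, 1.22% and 0.73% of resting-like cells held a UMI. For Cd1d1, 4 of 129, 3 of 573 and 0 of 287 germinal center-like cells held a UMI after thinning. The upper limits, 7.75%, 1.52% and 1.28%, lay below the resting-like share in 3′RR-*BCL2* and Igκ-*BCL2* but not in WT. Whether free RNA supplied the resting-like Cd1d1 share was not tested further.

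Cr2 kept one order of the genotypes throughout. In 9 of 9 classes the WT level was highest, that of 3′RR-*BCL2* came between and that of Igκ-*BCL2* was lowest. Between genotypes a gene is counted when the levels differ past 1.5-fold. In resting-like cells, 3 of 8 genes were past this in Igκ-*BCL2* over WT, all lower (Cr2, Cd1d1 and Fcrl5), where 10.1% of 11271 genes measured passed in either direction. None of the 8 passed in 3′RR-*BCL2* over WT, where 5.88% of 11226 genes did.

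In resting-like cells, Cr2 fell from 327 CPM in WT (321 to 333) to 159 in Igκ-*BCL2* (154 to 165), a log2 ratio of −1.04 (−1.10 to −0.98). In 3′RR-*BCL2* it was 249 (243 to 256), a log2 ratio of −0.39. The intervals of the 3 libraries do not overlap. Cd1d1 was at 27.6, 21.3 and 17.0, with log2 ratios to WT of −0.37 and −0.70. Fcrl5 was at 8.80, 8.13 and 4.76, with a log2 ratio of −0.88 (−1.23 to −0.55) in Igκ-*BCL2*.

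Other genes moved less in resting-like cells. Fcer2a had a log2 ratio of −0.38 in Igκ-*BCL2*, and Fcgr2b one of 0.32, the only member above 0.1 there. Fcgr2b was highest in Igκ-*BCL2* in 7 of 9 classes. Cd55, at 827, 842 and 869, and Fcrla, at 280, 290 and 272, hardly differed between the libraries. In resting-like cells Hspa1b stood at 22.5, 964 and 2750 CPM, so the genotype difference in Cr2 moved with that stress gene. In the 5874, 955 and 361 resting-like cells without a UMI of Hspa1a or Hspa1b, Cr2 was at 326, 212 and 171, with log2 ratios to WT of −0.62 and −0.93, so it passed 1.5-fold in both. Cd1d1 also passed in Igκ-*BCL2* in those cells, and Fcrl5, with 9 UMIs there, did not count.

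In marginal zone-like cells, 4 of 8 genes passed 1.5-fold in Igκ-*BCL2* over WT, where 10.5% of 7660 genes measured did. Cr2 (log2 ratio −1.36, −1.48 to −1.26), Cd1d1 (−1.55) and Fcrl5 (−0.78) were lower and Cd55 (0.61, 0.49 to 0.74) higher. None passed in 3′RR-*BCL2* over WT, where 6.52% of 8512 genes did and Cr2 had a log2 ratio of −0.49. Each of these 4 ratios had the opposite sign of the ratio of marginal zone-like over resting-like cells for the same gene. Cr2, Cd1d1 and Fcrl5 were also lower past 1.5-fold in resting-like cells of Igκ-*BCL2*, where Cd55 did not pass.

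The make-up of this class also differed between libraries. The 12 marginal zone markers, all detected, summed to 3026, 2642 and 1836 CPM. Markers of B-1 cells, a self-renewing B lineage, summed to 226, 219 and 421, all 10 detected in each library. The part of these shifts in the genotype ratios was not tested. Leaving out cells with a Lyz2 UMI gave the same 4 calls. At resolution 0.4 the Cr2 log2 ratio in Igκ-*BCL2* was −1.0, that of Cd1d1 −1.48 and that of Fcrl5 −0.87, while Cd55 at 0.54 no longer passed. Without integration the class shrank to 365, 22 and 41 cells, with Cr2 at log2 ratios to WT of −1.15 and −0.90, both past 1.5-fold.

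In germinal center-like cells, 1 of 6 genes with enough UMIs passed in each BCL2 library. Cr2 was lower in Igκ-*BCL2* (log2 ratio −0.66, −0.96 to −0.36), where 19.2% of 6448 genes measured passed. Cd55 was lower in 3′RR-*BCL2* (−0.96, −1.19 to −0.72), where 11.2% of 6376 genes did. Both counts are near the background. Without integration of the libraries, the Cd55 log2 ratio in 3′RR-*BCL2* turned to 0.58.

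**Figure D4:**
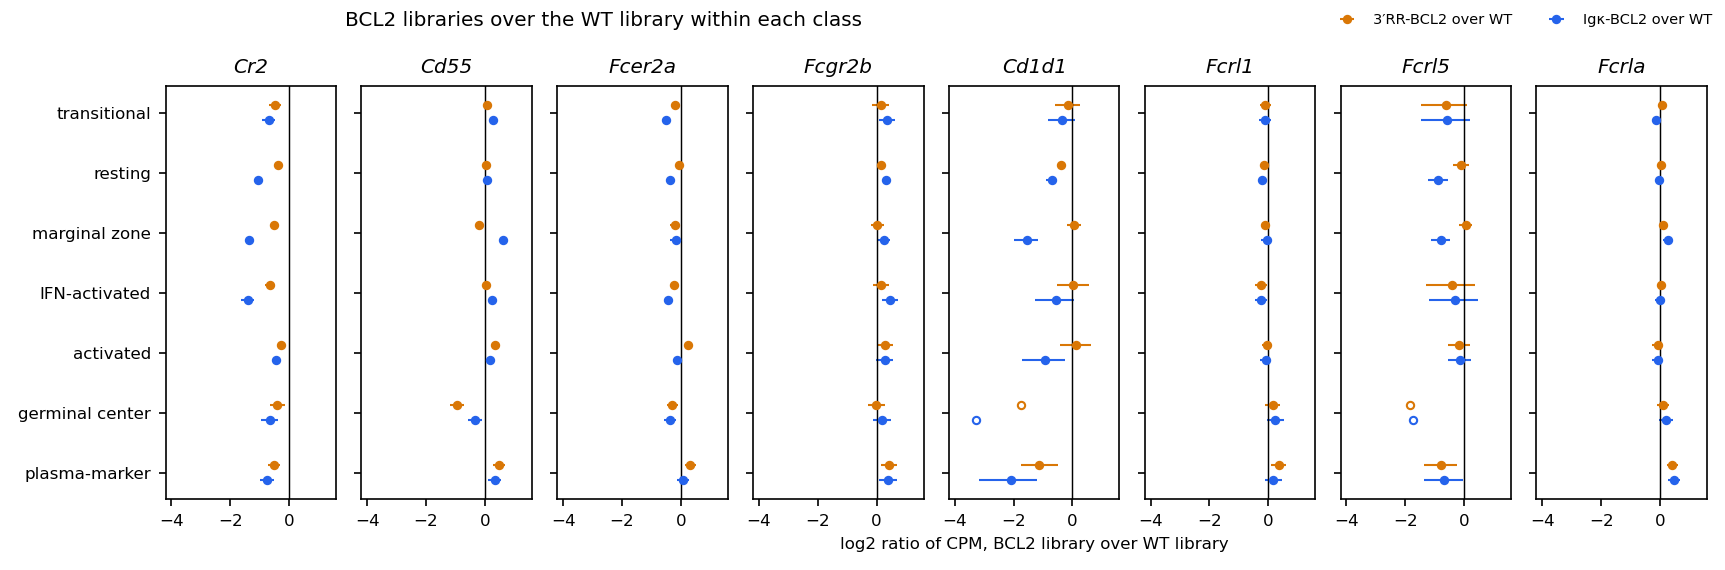
Log2 ratio of CPM in each BCL2 library over the WT library (x axes) within 7 classes (y axis) for the 8 genes, with lines for exact 95% intervals; open points are genes with too few UMIs. Cr2 lies left of 0 in each class and farther left in Igκ-BCL2 (−1.36 in marginal zone-like cells), while Fcgr2b lies at or right of 0 in Igκ-BCL2.

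The Apoe-led cluster, which joins 1 germinal center, 1 plasma cell, 1 B-1 cell and 2 erythroid genes among its leads and kept no name, showed the widest split in Cd55. It stood at 935 CPM in WT (884 to 988), 462 in 3′RR-*BCL2* (429 to 498) and 619 in Igκ-*BCL2* (578 to 662). Cr2 in the same cells was at 175, 80.4 and 60.1. The content of the cluster moved too: its 13 germinal center markers summed to 84.7, 756 and 560 CPM (10, 13 and 13 detected), its 12 marginal zone markers to 996, 456 and 497 and its 5 erythroid markers to 3.0, 7.8 and 114. The part of these shifts in the Cd55 split was not tested.

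Of the other genes of these pathways, 40 were listed and 39 were in the files. In marginal zone-like over resting-like cells, 19 had enough UMIs and 1 passed 2-fold, Fcer1g, the signalling chain of activating Fc receptors, at 44.4, 13.7 and 27.5 CPM against 0.4, 0.7 and 0.4. Its UMIs lay in 10, 4 and 7 cells, and without the cells that held a Lyz2 UMI it was at 3.23, 0.68 and 6.61, from 14, 2 and 13 UMIs, too few to count, so this call rests on those few cells. In germinal center-like, activated-like and plasma-marker cells the same 2 genes were lower in each, Fcgrt, the neonatal Fc receptor chain, and Notch2, out of 17, 17 and 18 with enough UMIs. Notch2 fell from 164, 164 and 177 CPM in resting-like cells to 59.0, 48.5 and 70.2 in germinal center-like cells. In marginal zone-like cells Notch2 was at 174, 135 and 174, with a median log2 ratio of −0.02 to resting-like cells. No gene of the 17 and 18 measured passed in transitional-like and IFN-activated-like cells.

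Cd81, which acts with Cr2, was at 170, 167 and 144 CPM in resting-like cells. B2m, the light chain of CD1d, and Fcmr, the IgM Fc receptor, were at 1577, 1820 and 1487 and at 847, 747 and 690. In marginal zone-like cells Cd81 was at 240, 237 and 147, and passed 1.5-fold lower in Igκ-*BCL2* with Cr1l, a complement regulator encoded near Cr2, at 210, 142 and 117, and with Fcer1g and Lair1, 4 of 19 genes, where Fcer1g again rests on the few cells with Lyz2. Of 20 such genes in resting-like cells, Cd55b was higher and Lair1 lower in Igκ-*BCL2*, and Cd59a was higher and Cd46 and Lair1 lower in 3′RR-*BCL2*. In marginal zone-like cells of 3′RR-*BCL2* only Fcer1g passed, lower, and in germinal center-like cells only Cd72 did, lower in Igκ-*BCL2*, with none of 13 in 3′RR-*BCL2*.

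Likeness between genes was measured over 27 points, 9 classes in each of 3 libraries, centred within each library, among 5835 genes. It is a description, since points of a library share its depth and cells. Among the 8 genes, Cr2 was most like Fcrl5 (Pearson r of 0.79) and Cd1d1 (0.74), and Cd55 most like Fcer2a and Fcrla (0.78 each). Cr2 and Fcer2a had an r of 0.06. Outside the group, Cr2 was most like Myc (0.86), Hes1 (0.83), a Notch target, and Hs3st1 (0.83). In the lists used for naming, Myc is a marker of activated cells and Hes1 of marginal zone cells.

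The nearest genes of Cd55 were Arhgef3 (0.98), Gm15675 (0.98) and Csnk1g3 (0.97), and those of Fcer2a were Gpbp1 (0.95), Pxk (0.92) and Msn (0.89). Fcrl5 lay nearest to Rplp1 (0.94), Pdia4 (0.91) and Marcks (0.91), the last a marginal zone marker. Cd1d1 lay nearest to Ptprj (0.92), Fgd2 (0.89) and BC028528 (0.89). Fcgr2b lay nearest to Ncoa7 (0.88), Rasal3 (0.88) and Gpr137b (0.86), Fcrl1 to Ttc14 (0.90), Tlr1 (0.90) and N4bp2l2 (0.88), and Fcrla to Crebrf (0.95), Cd2 (0.94) and Acp5 (0.94).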

How the data were processed

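Splenic B cells of 3 genotypes were profiled with 10x Chromium 3′ v3.1 chemistry. Per the labels, the authors used Cell Ranger 6.1.1 and named the builds mm10 and hg38. The authors deposited raw UMI counts per gene and barcode for each library, not normalized, with 32285 mouse genes (human BCL2 was not analysed here), of which 32158 identifiers were found in the GRCm38 annotation. The filters and clustering followed the study's methods: cells with 800 to 4500 genes and up to 20000 UMIs were kept where mitochondrial genes gave no more than 8% and ribosomal protein genes no less than 10% of UMIs, and where Cd3 and C1q genes each had under 2 UMIs. Seurat 5.3.0 and sctransform 0.4.2 in R 4.3.3 integrated the libraries (CCA, 30 components), with 12 principal components, 30 neighbours and resolution 0.2, and the germinal center cluster was divided further. Immunoglobulin genes, Bcl2, the 8 genes and the other genes of their pathways were left out of the features. A cluster was named from its 10 leading genes, and the thresholds for naming were set after the clusters had been seen. Barcodes with at least 6 of 13 plasma markers were classed without the upper limits on genes and UMIs.

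Counts were summed per class and library with Python 3.11.15, numpy 2.4.6, scipy 1.17.1 and pandas 2.3.3. Levels have exact Poisson intervals, ratios exact conditional intervals and shares Clopper-Pearson intervals, all covering counting error only, and no test was run. A gene counted when the mean CPM of the 2 sums compared would give the smaller one at least 10 UMIs between classes (in each library) or 20 between genotypes. Scrublet (scanpy 1.11.5) marked 1, 1 and 0 barcodes as doublets by its own threshold and so had not worked. All cells were kept, and the upper 5% of scores were left out as an alternative. Interval scripts were tested on simulated data. The 8 genes, the pathway lists and the markers were chosen with earlier results of these data known. The text names all 8 genes, pathway genes past a threshold or highest in resting-like cells (at most 12), and the 3 genes most like each. Reads from near-identical copies (Cd1d1 and Cd1d2, Cd55 and Cd55b, Fcgr2b and Fcgr3) may be assigned to either. Figures were drawn with matplotlib 3.10.9.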

Additional observations from a re-analysis of the deposited data

Results flagged for a closer look

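Cd55 moved in opposite directions in Igκ-*BCL2* over WT in 2 classes: its log2 ratio was 0.61 in marginal zone-like cells and −0.59 in the Apoe-led cluster. With 1 library per genotype the difference was not tested. Germinal center markers in the Apoe-led cluster summed to 84.7 CPM in WT and 560 in Igκ-*BCL2*, and their part in the Cd55 difference was not tested. Cd55 no longer passed 1.5-fold in marginal zone-like cells at resolution 0.4, with the upper 5% of doublet scores left out, with the 8 genes among the features, or with classes from markers alone.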

How the results depend on the processing

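No paired analysis was possible because each genotype has 1 library, and the labels' number 1 pairs nothing. Counts of the 8 genes past a threshold kept within 1.5 times in 111 of 129 comparisons with an alternative, counts that stayed at 0 included. Single ratios moved more often. Of the median ratios between classes, 245 stayed within the main range of the 3 libraries and 99 moved out of it. Of the genotype ratios, 288 stayed within the main interval, 63 moved out and 1 turned sign. With the looser cell filter, the count in 3′RR-*BCL2* germinal center-like cells was 0, and the marginal zone-like cluster could not be named. Without integration no cluster was transitional-like, marginal zone-like cells numbered 428 in all, and the counts were 0 and 2 in 3′RR-*BCL2* and Igκ-*BCL2* germinal center-like cells and 1 in 3′RR-*BCL2* marginal zone-like cells. There the Cd55 log2 ratio in 3′RR-*BCL2* germinal center-like cells turned to 0.58, and the cause was not tested, nor for the other counts that moved. With classes from markers alone, the counts were 1 for germinal center-like over resting-like, 2 for 3′RR-*BCL2* in germinal center-like and 2 for Igκ-*BCL2* in marginal zone-like cells. With no minimum of UMIs, both germinal center-like genotype counts were 3. With lower folds (1.5 in place of 2 between classes, and a lower one between genotypes), the counts were 1 in transitional-like and 5 in plasma-marker cells, 2 and 1 in 3′RR-*BCL2* resting-like and marginal zone-like cells, and 2 and 3 in germinal center-like cells of 3′RR-*BCL2* and Igκ-*BCL2*. The plasma-marker count was 1 with the thinned marker rule and 4 in the 25 barcodes over 20% immunoglobulin (chosen after seeing the data, as were the cells without Hspa1a and Hspa1b, where the 3′RR-*BCL2* resting-like count was 1). The share of WT marginal zone-like cells with a Cr2 UMI was 55.2% at 1000 UMIs and 89.1% at 4000. Leaving out each library in turn (also chosen later) gave 4 to 5 genes for marginal zone-like, 3 to 4 for germinal center-like, 2 to 2 for activated-like, 3 to 3 for plasma-marker and 0 to 0 for transitional-like and IFN-activated-like cells. Depth limits Fcrl5 and Cd1d1 in germinal center-like cells.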
